A study of Homo sapiens with 11 samples.

Results

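The gene CUEDC1 on human chromosome 17 holds a dense row of estrogen receptor (ER) binding sites in Ishikawa, an established line of human endometrial cancer cells. All peaks that overlap the interval from 55890000 to 56080000 on chromosome 17 (hg19), which is the gene body at about 55938604 to 56032684 with about 50 kb on each side, were taken from 8 peak lists. This gave 124 peaks of 90458 in all. There were 8 and 13 ER peaks with the combination of hormones and with estradiol, 4 and 1 glucocorticoid receptor (GR) peaks with the combination and with dexamethasone, and 21, 25, 31 and 21 peaks of histone H3 acetylated at lysine 27 (H3K27ac) with the combination, estradiol, dexamethasone and vehicle. The locus was chosen by the number and spacing of its ER peaks in these lists, so both are given as a description.

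CUEDC1 encodes a protein with a CUE domain, a fold known for binding ubiquitin, and it has been described as an ER target gene in breast cancer cells. ER and GR are ligand-activated transcription factors that bind DNA mostly at enhancers, which often lie far from promoters and may sit in groups within or around a gene. H3K27ac is a histone mark found at active enhancers and promoters. In RefSeq (GRCh38.p14, used here only for names, order and length) the annotated CUEDC1 is 94170 bp long, which differs by 89 bp from the 94081 bp of the hg19 body. Its neighbour at lower coordinates is MRPS23, a protein of the mitochondrial ribosome. At higher coordinates lie VEZF1, a zinc finger transcription factor, the non-coding RNA gene LOC101929185 and SRSF1, a splicing factor. The non-coding RNA gene CUEDC1-AS1 lies inside CUEDC1. CUEDC1 is known to be transcribed towards lower coordinates, so the higher end of the body is its start.

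Chromatin immunoprecipitation with sequencing was done once per group. ER was profiled after 1 h with 100 nM dexamethasone plus 10 nM estradiol (the combination) or with 10 nM estradiol. GR was profiled after 1 h with the combination or with 100 nM dexamethasone. H3K27ac was profiled after 8 h with the combination, estradiol, dexamethasone or the vehicle DMSO, per the treatment label of each sample (the protocol text names 1 h throughout). Dexamethasone is a synthetic ligand of GR and estradiol is the ligand of ER. All cells had been grown in medium with charcoal/dextran-treated serum. Of 11 samples, 8 came with a peak list, and the 3 others (ER and GR with vehicle, and a control) were not analysed here.

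Each group is a single library, and whether it pools cultures is not stated, so no spread between replicates exists and no test was made. Usable tags ranged from 5206574 to 8508828 in the receptor libraries and from 9034395 to 18508574 in the H3K27ac libraries. The dexamethasone H3K27ac library had the highest duplicate rate, 33%, against 18% to 22% in the other H3K27ac libraries. Its part in the results below was not tested. Fold enrichment (the ratio of summit coverage to local control coverage), pileup and −log10 q are the authors' own values for each peak. They rank peaks within a list; values of different lists are set side by side and show no change by themselves.

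The ER sites around CUEDC1 formed one of the densest groups in the genome with estradiol. Counted in both directions, 11 of the 13 sites had 13 estradiol ER summits within 95 kb, themselves included, and the remaining 2 had 12. Over all 3560 estradiol ER sites the median was 2, the highest count was 16, and 1243 sites (34.9%) had no other site in reach. Only 18 sites (0.506%) reached 13 or more, and 11 of these were the sites around CUEDC1. With the combination, the 8 sites had 7 or 8 summits in reach, against a median of 2 and a maximum of 11 over all 2382 combination ER sites.

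**Figure D1:**
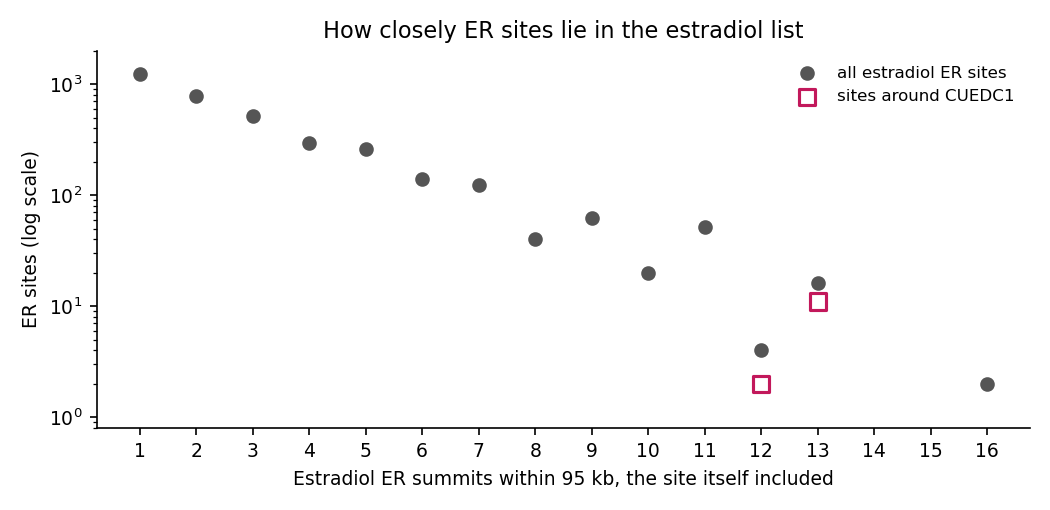
Number of ER sites of the estradiol list (log scale) by how many estradiol ER summits lie within 95 kb of them, the site itself included. Filled circles are all 3560 sites and open squares the 13 around CUEDC1, of which 11 stand at 13 and 2 at 12, against a median of 2 over the list.

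The 13 estradiol sites spanned 121.7 kb, with 12 gaps between neighbouring summits of 1112 to 32279 bp (median 8839 bp). They are numbered here from low to high coordinate. Which gene any of them acts on was not tested. In the estradiol list, 10 overlapped the CUEDC1 body, 2 lay below it and 1 above. ER site 1 (55911601 to 55911757) and ER site 2 (55938221 to 55938436) lay below the body, the second of them 168 bp from its edge. ER site 13 (56033017 to 56033272) lay 333 bp above the other end, beside the start of CUEDC1.

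The interval was isolated from other receptor sites. The closest estradiol ER sites outside it were at 54979881 to 54980001, 909.999 kb below the interval (fold enrichment 13.3), and at 58216773 to 58216895, 2136.773 kb above it (12.5). Inside, the outermost sites were ER site 1, 21.6 kb from the lower edge, and ER site 13, 46.7 kb from the upper edge, with fold enrichments of 23.6 and 11.0. The edges of the interval therefore split no group of sites.

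**Figure D2:**
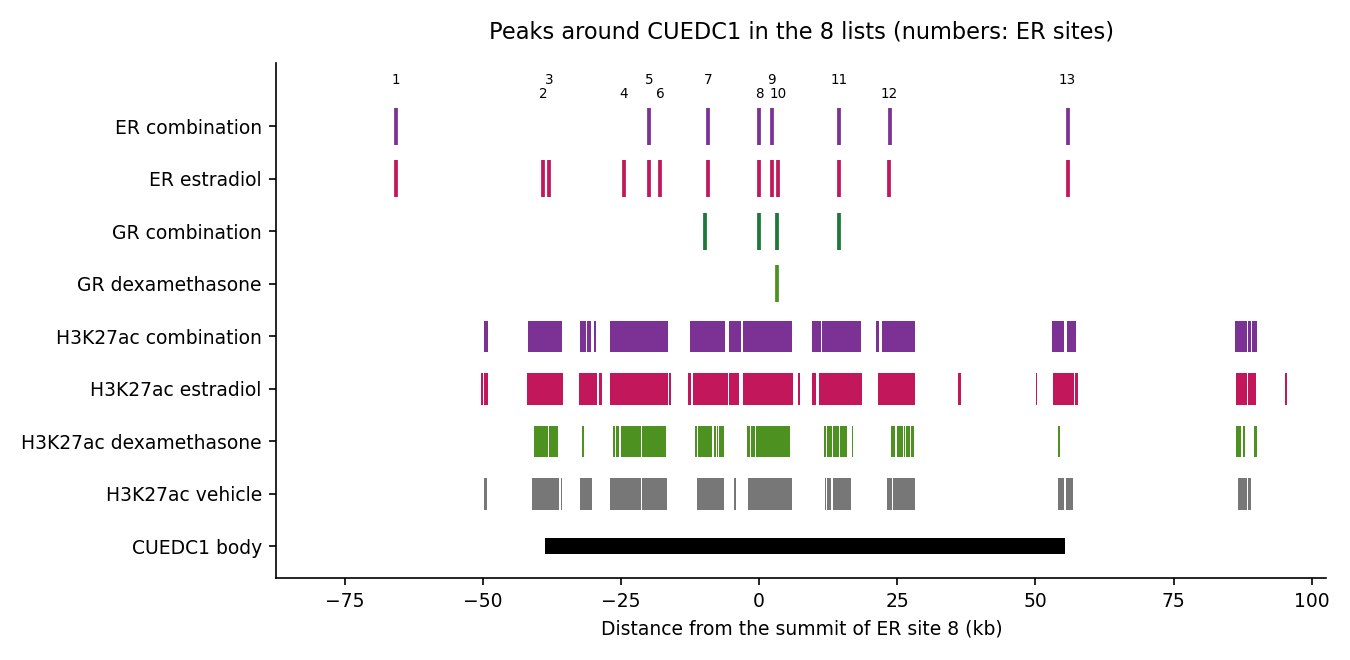
Map of the 124 peaks over the 190 kb interval, as distance in kb from the summit of ER site 8, with lists from top to bottom and the CUEDC1 body as a black bar. Vertical ticks are summits of ER and GR peaks and blocks are H3K27ac peaks. ER sites run along the gene in wide H3K27ac blocks, GR has 4 ticks with the combination and 1 with dexamethasone, and the dexamethasone H3K27ac blocks are the most broken up.

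The 6 strongest estradiol ER sites of the locus by −log10 q were also called with the combination. All 8 combination ER sites were estradiol sites, and 8 of 13 estradiol sites (61.5%, exact Clopper-Pearson 95% interval 31.6 to 86.1, counting error only) were found with the combination. Over the whole lists, these shares were 91.9% of combination sites and 61.8% of estradiol sites. The locus was thus close to the genome in the share of estradiol sites called with both hormones.

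ER site 8, in the middle of the gene, was the strongest ER site of the locus in both lists. With the combination it lay at 55977240 to 55977469 with a pileup of 99.02 and a fold enrichment of 33.3, ranked 41 of 2382. With estradiol it lay at 55977238 to 55977461 with a pileup of 72.8 and a fold enrichment of 34.002, ranked 67 of 3560. The fragment length used for the pileup was 121 bp with the combination and 90 bp with estradiol, so pileups of the lists are not on one scale.

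By −log10 q, ER sites 7 and 11 came next in both lists. ER site 11 had fold enrichments of 28.5 with the combination (55991662 to 55991892) and 32.2 with estradiol (55991683 to 55991915). ER site 7 had 27.9 with the combination (55967542 to 55968220) and 25.2 with estradiol (55967563 to 55968221). These 3 sites, the strongest by −log10 q, lay within 23.7 kb.

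ER site 7 was also unusually wide, at 679 bp with the combination and 659 bp with estradiol, against list medians of 197 and 158 bp. Only 3 combination ER peaks and 7 estradiol ER peaks in the genome, this one included, were at least that wide.

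The other sites found in both lists had lower −log10 q. ER site 5 had fold enrichments of 23.1 with the combination (55957180 to 55957537) and 26.6 with estradiol (55957223 to 55957515), the estradiol value being above that of ER site 7. For ER site 1 they were 17.9 with the combination (55911615 to 55911766) and 23.6 with estradiol. ER site 9 had 17.8 with the combination (55979583 to 55979729) and 18.1 with estradiol (55979574 to 55979738).

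The site by the start of CUEDC1 was of ordinary strength. ER site 13 had fold enrichments of 10.98 with the combination (56033027 to 56033271) and 10.96 with estradiol, which were above 40.2% and 43.9% of their lists by −log10 q. ER site 12 had the lowest −log10 q of the sites found in both lists, with fold enrichments of 10.1 with the combination (56000861 to 56000995) and 11.0 with estradiol (56000856 to 56001106). Of the 8 sites in both lists, 2 had the higher fold enrichment with the combination and 6 with estradiol. The summits of the pairs lay 5 to 81 bp apart, with a median of 17.5 bp, against 12 bp over 2190 pairs of the whole lists.

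The 5 estradiol sites absent from the combination list had the lower median fold enrichment. Their fold enrichments were 9.67 at ER site 2, 9.60 at ER site 3 (55939366 to 55939471), 17.0 at ER site 4 (55952810 to 55953000), 8.31 at ER site 6 (55959455 to 55959615) and 13.9 at ER site 10 (55980786 to 55980922). Their median was 9.67, against 24.4 for the 8 sites found in both lists, and the ranges overlapped (8.31 to 16.97 against 10.96 to 34.002). The strongest of them, ER site 4, lay above 56.9% of the estradiol list, while ER sites 12 and 13 were found with the combination from lower ranks. Over the whole estradiol list the share found with the combination also differed by strength: all 5 locus sites in the strongest 25% were found, beside 98.9% in that 25% of the list, and 1 of 3 in the weakest 25%, beside 21.8%.

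**Figure D3:**
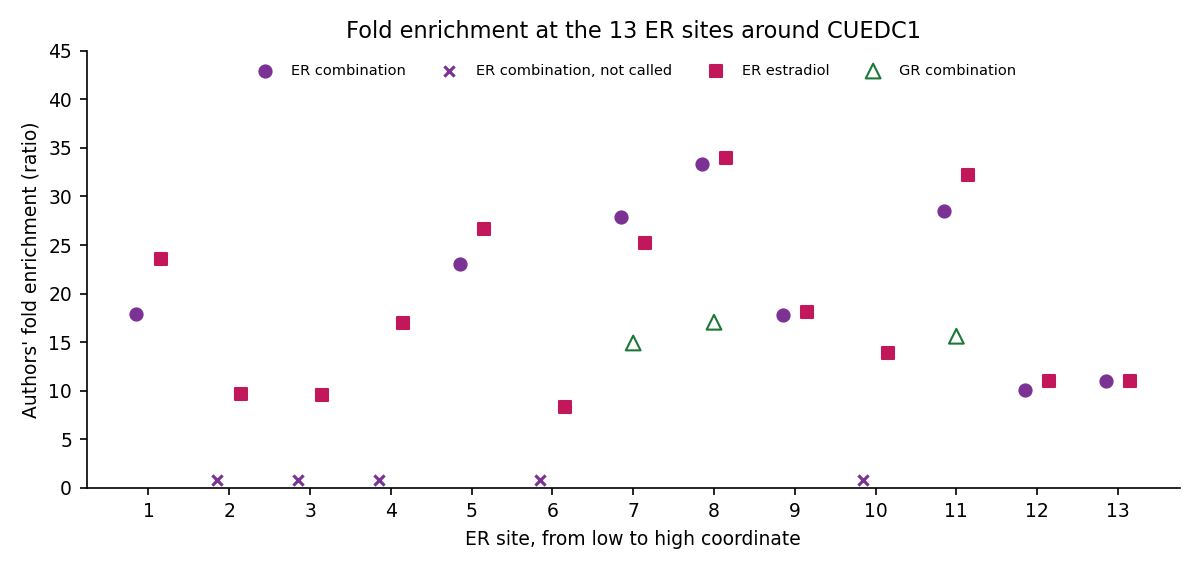
The authors' fold enrichment (ratio) at the 13 ER sites, from low to high coordinate, as circles for the combination and squares for estradiol; crosses mark sites not called with the combination and triangles the GR peaks that overlap ER sites with the combination. ER sites 7, 8 and 11, which carry GR, have the 3 highest combination values, 27.9 to 33.3.

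GR was called at 4 places in CUEDC1 with the combination and at 1 with dexamethasone, all in the gene body. The dexamethasone site, 55980593 to 55980726, had a fold enrichment of 14.6 and lay above 63.7% of its list. It was also called with the combination, at 55980586 to 55980722, with a fold enrichment of 11.4 and above 40.0% of that list. The 2 summits lay 21 bp apart. Over the whole lists, 63.1% of combination GR sites were dexamethasone sites, against 1 of 4 here, and 56.8% of dexamethasone GR sites were combination sites, against 1 of 1.

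This GR site common to both treatments did not overlap an ER site. Over the whole lists, 20.1% of dexamethasone GR sites overlapped an estradiol ER site and 20.7% a combination one, so most did not either. The nearest estradiol ER site, ER site 10, was separated from it by 63 bp in the combination GR list and by 59 bp in the dexamethasone GR list, and ER site 10 was absent from the combination ER list. The nearest combination ER site, ER site 9, lay 856 bp away. Of the 1028 combination GR sites that were also dexamethasone sites, 36 (3.50%) lay beside an estradiol ER site within 1 kb without touching it, and 258 (25.1%) overlapped one.

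The other 3 GR sites of the combination list, absent with dexamethasone alone, lay on ER sites 7, 8 and 11, the 3 strongest by −log10 q in both ER lists. Thus 3 of 4 combination GR sites overlapped ER in each ER list, beside 47.2% of all combination GR sites for the combination ER list and 43.5% for the estradiol ER list. Of the 600 combination GR sites absent from the dexamethasone list, 450 (75%) overlapped an estradiol ER site, as the 3 here did. On ER site 8 the GR peak (55977285 to 55977452) had a fold enrichment of 17.0, on ER site 11 (55991703 to 55991853) 15.6, and on ER site 7 (55967569 to 55967710) 14.9. These lay above 76.6%, 52.5% and 62.3% of the combination GR list by −log10 q. Of 8 combination ER sites, 3 (37.5%, 8.52 to 75.5) carried GR, beside 31.9% over the whole list. The −log10 q of these 3 ER sites started at 67.0, and the highest among the other 5 was 47.4.

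No ER site of the locus carried a dexamethasone GR site: 0 of 13 estradiol sites, an exact interval of 0 to 24.7%, beside 10.0% over the whole list. Most estradiol ER sites of the whole list thus carried none either. This interval and the earlier ones treat neighbouring sites as independent and hold counting error only. A combination GR site lay on 3 of 13 estradiol sites, beside 19.7%. Of the 5 estradiol ER sites in the strongest 25% of their list, 3 carried GR with the combination, where 42.6% of that 25% of the list did. Strong ER sites elsewhere thus also had GR calls with both hormones.

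GR and ER summits nearly coincided at 2 of the 3 shared places. With the combination they lay 4 bp apart at ER sites 8 and 11, against a median of 20 bp over 768 such GR sites. At ER site 7 they lay 425 bp apart, with the GR peak at the lower-coordinate end of the wide ER peak.

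Most ER sites of the interval lay in chromatin that was acetylated in every treatment, vehicle included. The H3K27ac peaks overlapped 12 of 13 estradiol ER sites with the combination, 12 with estradiol, 10 with dexamethasone and 12 with vehicle (92.3%, 64.0 to 99.8). The interval treats the sites as independent, although several shared an acetylated region. Over the whole estradiol ER list these shares were 46.5%, 50.6%, 27.5% and 36.8%. Of the 8 combination ER sites, 7 overlapped H3K27ac with the combination, 7 with estradiol, 5 with dexamethasone and 7 with vehicle, beside 50.7%, 53.4%, 31.0% and 36.4%. Receptor binding stands for 1 h of treatment and the histone mark for 8 h, so binding at 8 h is unknown.

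ER site 1 was the exception in every list, and its nearest H3K27ac peak lay 15879 bp away with the combination, 15209 bp with estradiol, 24862 bp with dexamethasone and 15869 bp with vehicle. It was a fairly strong ER site without acetylation, above 77.5% of the estradiol list. ER sites 12 and 13 lacked an overlapping H3K27ac peak with dexamethasone alone, whose nearest peaks lay 70 and 1132 bp away. All 4 combination GR sites overlapped H3K27ac in each list, beside 47.7% with the combination, 42.9% with estradiol, 33.7% with dexamethasone and 33.3% with vehicle over all combination GR sites. The dexamethasone GR site did too, beside 43.9%, 39.7%, 36.9% and 37.2% in the same order.

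ER sites that lie in groups were more often acetylated genome-wide. Of 183 estradiol ER sites elsewhere with 8 or more sites in reach, 144 (78.7%) overlapped H3K27ac with the combination, 153 (83.6%) with estradiol, 104 (56.8%) with dexamethasone and 134 (73.2%) with vehicle. Of the 1243 ER sites with no other in reach, 329 (26.5%), 357 (28.7%), 173 (13.9%) and 244 (19.6%) did in the same order. The CUEDC1 counts stood nearer to the grouped sites.

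When H3K27ac peaks of all lists were merged where they overlapped or touched, the interval held 22 regions, of which 10 were present in all 4 lists (beside 27.7% of 27111 regions in the genome). The 12 acetylated ER sites lay in 7 of them, and all 7 were present in all 4 lists. Together these 7 regions had 49.9 kb in peaks with the combination, 51.3 kb with estradiol, 32.3 kb with dexamethasone and 39.9 kb with vehicle. In all 7 the dexamethasone list covered the least, and the combination list covered more than vehicle in all 7.

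The widest region, 55950332 to 55960826, held ER sites 4, 5 and 6. Its strongest peak had fold enrichments of 47.5 with the combination, 57.6 with estradiol, 36.3 with dexamethasone and 36.3 with vehicle. These values came from different places. The estradiol summit lay at 55952550, near ER site 4. The combination, dexamethasone and vehicle summits lay at 55957641, 55957445 and 55957544, near ER site 5. With the combination and with estradiol the region was 1 unbroken peak of 10363 and 10495 bp. It was in 4 peaks with dexamethasone and in 2 with vehicle.

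The region of ER sites 8, 9 and 10 and of 2 combination GR sites, 55975023 to 55983494, held the strongest H3K27ac peak of the locus by −log10 q with the combination and with estradiol. That peak ranked 14 of 20873 with the combination and 34 of 23888 with estradiol. It ranked 197 of 15192 with dexamethasone and 248 of 21120 with vehicle. The fold enrichments were 43.8, 44.2, 25.7 and 21.9 in that order, so the combination and estradiol lists gave the higher pair of values and dexamethasone and vehicle the lower pair.

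The region of ER site 11, 55987295 to 55995926, held 1 combination GR site. The fold enrichment of its strongest peak was 38.6 with the combination, 52.0 with estradiol, 19.1 with dexamethasone and 17.1 with vehicle. The length in peaks was 8165 bp, 8235 bp, 3581 bp and 4387 bp in that order. With dexamethasone the estradiol ER summit fell in a gap of 226 bp between 2 H3K27ac peaks.

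The H3K27ac region of ER site 7, 55964535 to 55971207, had fold enrichments of its strongest peak of 35.2 with the combination, 42.1 with estradiol, 22.6 with dexamethasone and 22.5 with vehicle. The region of ER sites 2 and 3, 55935443 to 55941955, at the far end of the gene, did not follow that order: its strongest peak had 13.96 with the combination, 41.6 with estradiol, 14.4 with dexamethasone and 29.2 with vehicle. It was among the strongest 1% of vehicle peaks, above 99.6% of that list. Both of its ER sites were called with estradiol alone.

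The region at the start of CUEDC1, 56030380 to 56035106, had no peak in the strongest 1% of any list. Its strongest peak had fold enrichments of 29.5 with the combination, 17.5 with estradiol, 13.6 with dexamethasone and 18.03 with vehicle. Only the estradiol value came from a peak over ER site 13. The peaks over that site had 14.2 with the combination, 17.5 with estradiol and 6.25 with vehicle, and dexamethasone had none. The length in peaks was 3722 bp with the combination, 4459 bp with estradiol, 492 bp with dexamethasone and 2504 bp with vehicle. One estradiol peak, 56030568 to 56034422, ran over the end of the gene body. At that point the combination list had a gap of 555 bp between peaks and the vehicle list one of 348 bp, while the dexamethasone list had no peak from 56031884 to 56063703.

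ER site 12 lay in the region 55998492 to 56005639, which had fold enrichments of 13.9 with the combination, 19.2 with estradiol, 13.3 with dexamethasone and 12.4 with vehicle. This was the lowest value of the 7 regions in each list except estradiol, where the region at the gene start was lower. Over the 7 regions the estradiol list held the highest fold enrichment in 6, where strongest peaks of different lists could lie at different places. Of the strongest peaks with estradiol, 5 were in the strongest 1% of the list. That number was 4 with the combination, 0 with dexamethasone and 2 with vehicle.

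**Figure D4:**
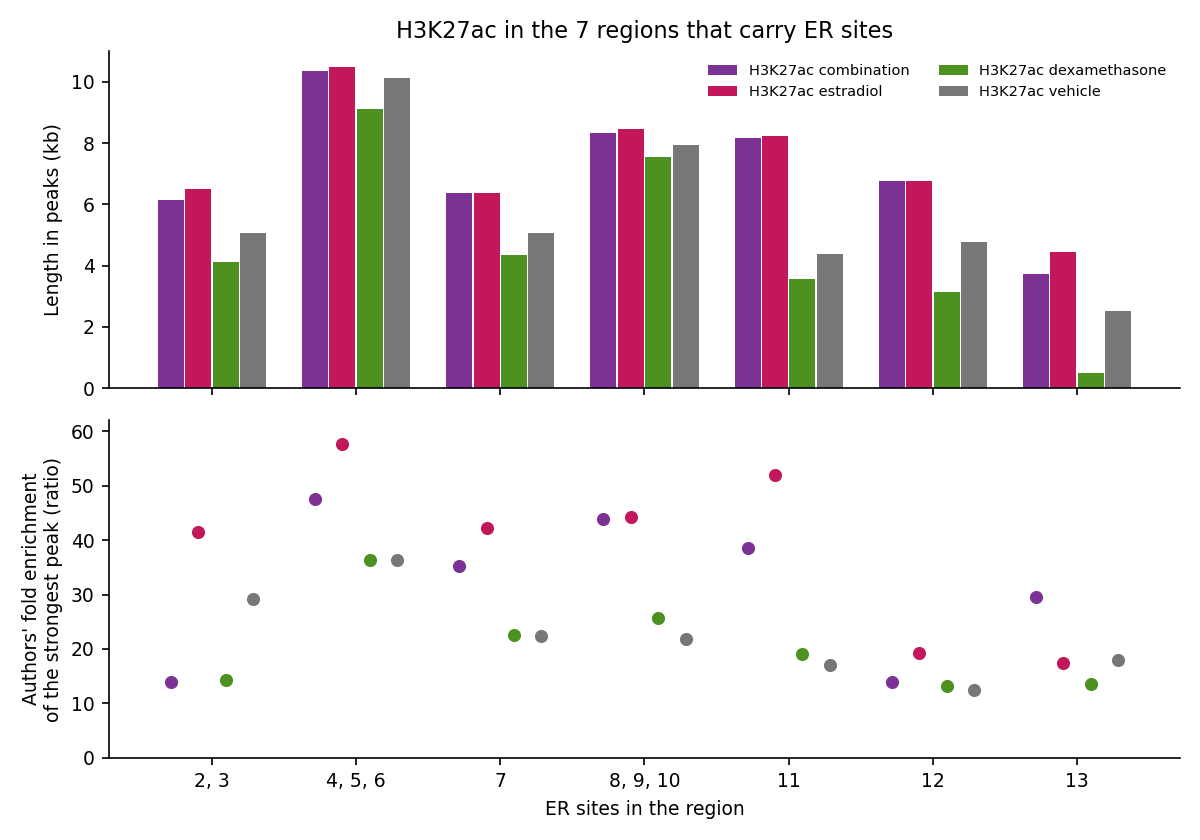
H3K27ac in the 7 merged regions that carry ER sites, each with the combination, estradiol, dexamethasone and vehicle lists from left to right. Bars give the length in peaks (kb) and dots the authors' fold enrichment (ratio) of the strongest peak in the region. That peak can lie at a different place in each list. Dexamethasone covers the least of every region, down to 0.492 kb at ER site 13, and estradiol has the highest fold enrichment in 6 of 7.

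Over the whole interval, H3K27ac peaks covered 58.9 kb with the combination, 64.3 kb with estradiol, 34.5 kb with dexamethasone and 45.1 kb with vehicle. The whole lists covered 20.3, 24.2, 12.4 and 17.96 Mb in the same order. For each 10000 bp covered by a list, the locus thus held 29.1 bp with the combination, 26.6 bp with estradiol, 27.8 bp with dexamethasone and 25.1 bp with vehicle, so the whole lists differed in covered length in a similar way. The mean fold enrichment weighted by peak length was 29.2 at the locus with the combination, 35.9 with estradiol, 17.8 with dexamethasone and 19.8 with vehicle. The whole lists had 17.1, 19.04, 18.1 and 14.9. The dexamethasone value of the locus was thus close to that of its list, and the other 3 were above theirs.

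The H3K27ac peaks with dexamethasone were numerous, and they lay in regions seen in all treatments. Their median width in the interval was 568 bp, near the 604 bp with estradiol. It was 1127 bp with the combination and 1178 bp with vehicle. All 31 dexamethasone peaks lay in the 10 regions present in all 4 lists, 3.10 per region. The other lists had 17 peaks (1.70 per region) with the combination, 13 (1.30) with estradiol and 19 (1.90) with vehicle. Over all 7516 such regions of the genome, the means were 1.31 with the combination, 1.18 with estradiol, 1.53 with dexamethasone and 1.36 with vehicle.

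None of the 10 regions called with a hormone and not with vehicle held an ER site. Of estradiol-gained regions in the genome, 6.89% overlapped an estradiol ER site, so most held none there too. At the locus this also follows from the 12 acetylated ER sites, which all lay in regions present in all 4 lists. Against vehicle, 2 of 22 regions were gained with the combination (beside 14.9% of regions in the genome), 10 with estradiol (beside 21.8%) and 0 with dexamethasone (beside 10.8%). The 2 combination regions were among the 10 estradiol ones. Regions lost numbered 0 with the combination (beside 15.1%), 0 with estradiol (beside 4.60%) and 2 with dexamethasone (beside 35.3%). The numbers gained turned with the lists used: with each list cut to its stronger 50%, or to equal length, 2 were gained with the combination and 1 with estradiol. Gained and lost describe calls in lists, not levels.

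The 10 gained regions were small and weak. They were 273 to 566 bp long, 8 lay in the CUEDC1 body, their estradiol fold enrichments were 5.74 to 8.76, and by −log10 q they lay above 3.15% to 26.2% of that list. No estradiol ER site overlapped any of them or lay within 1 kb. In the genome, 408 of the 5919 estradiol-gained regions (6.89%) overlapped one. The genome share for a reach of 1 kb was not counted. Of the 10, 7 lay within 1 kb of a region that vehicle also had.

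Among H3K27ac peaks that did not overlap a receptor peak, some of which lie in the same merged regions as ER sites, the strongest by −log10 q with the combination were 56030380 to 56032440 (fold enrichment 29.5), 56063497 to 56065640 (16.3) and 56065841 to 56066385 (9.61). With estradiol they were 56063711 to 56065684 (34.5), 56065789 to 56067266 (17.7) and 55971967 to 55973703 (15.6). With dexamethasone they were 55970097 to 55971023 (19.5), 55989674 to 55990458 (11.4) and 55951402 to 55951999 (13.01). With vehicle they were 56064034 to 56065659 (19.2), 56002354 to 56003915 (12.4) and 56031354 to 56032487 (18.03). The peaks from 56063497 upwards lie beyond the gene body, on its VEZF1 side, and had no receptor site in any list.

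Other dense ER groups differed from CUEDC1 and among themselves. Among non-overlapping windows of the same length, the one at CUEDC1 had the second highest number of estradiol ER sites, tied with the third. The first, on chromosome 16 with summits from 16083335 to 16245722, had 16 ER sites, of which 6 were found with the combination, 2 carried GR with the combination and 1 with dexamethasone. The third, on chromosome 5 from 139018103 to 139142594, had 13, of which 4 were found with the combination, 1 carried GR with the combination and 0 with dexamethasone. The fourth, on chromosome 11 from 68890332 to 69069378, had 12, of which 11 were found with the combination and 9 carried GR with each of the 2 treatments. With vehicle, H3K27ac overlapped 12 of 13 ER sites at CUEDC1, 8 of 16 on chromosome 16, 12 of 13 on chromosome 5 and 12 of 12 on chromosome 11.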

How the data were processed

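The submitters' processing notes name Bowtie 1.1.2, MACS2 2.1.0.20140616 and hg19. The file headers give, for each of the 8 lists, a control library, a p cutoff of 1e-10, at most 1 tag per position, and scaling of the larger library down to the smaller. The ER lists share a control tag total, as do the GR lists and the H3K27ac lists. The headers do not say whether these controls were input or IgG, and the control sample carries labels of either kind, so what fold enrichment is relative to is known only as a control. Scaling brought both ER libraries to 3479280 tags, dexamethasone GR to 5735043 and vehicle H3K27ac to 14002417, and left the others at their own depth. Pileup is a deposited signal (fragment coverage at the summit), −log10 of the p-value and q-value are as the authors deposited them, and fold enrichment is the authors' deposited ratio to local control. Deposited positions are 1-based hg19 coordinates in bp, under the authors' own column names.

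Overlaps of 1 bp or more between peaks were counted with Python 3.11.15, pandas 2.3.3 and scipy 1.17.1, with code tested on simulated peaks. Named were every ER and GR peak of the locus, the H3K27ac peaks or merged regions over them, and the 3 strongest other H3K27ac peaks per list. The window, its genes and the comparisons were chosen with earlier results of these data known. Alternatives were summit distance, a gap of 1 kb, the stronger 50% of each list, lists of equal length, wider merging and the gene body alone. Sequences of the sites and motifs were not analysed here.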

Additional observations from a re-analysis of the deposited data

How the results depend on the processing

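Of 52 counts recomputed under other settings, 42 stayed within 1.5 times the count reported and 10 did not. This compares counts and not shares, although some settings also left fewer sites. The estradiol ER sites found with the combination were 6 of 7 with the stronger 50% and 7 of 9 with equal length. Both counts are among the 42, although as shares they are higher than the 8 of 13 reported. With each list cut to its stronger 50%, the dexamethasone GR site was no longer found with the combination (0 of 1), because its combination peak falls in the weaker part of that list. The same cut left 7 estradiol ER sites, of which 6 were under H3K27ac with the combination, 6 with estradiol, 6 with dexamethasone and 6 with vehicle. Without the cut these were 12, 12, 10 and 12 of 13, so the counts fell along with the number of sites. Counting intervals within 1 kb, 2 of 13 estradiol ER sites had a dexamethasone GR site beside them instead of 0. Regions gained with estradiol fell to 3 when peaks within 1 kb were merged, to 1 with the stronger 50% and to 1 with lists of equal length, and those gained with the combination to 0 with the wider merging. The combination count was 2 with the stronger 50% and with equal length, above that of estradiol. The count of 10 therefore depends on weak, short peaks. No paired analysis was possible because each group holds 1 library, and with single libraries and unequal depth a peak absent from a list may lie just under its threshold.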
